A study of Mus musculus with 12 samples.

Results

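Total RNA of the ileum, the last stretch of the small intestine, was sequenced from pups of 6 mouse dams on postnatal day 14, and the comparison described here takes the dam as the replicate. Counts of the male and of the female pup of each dam were summed, which turned all 12 libraries of the series into 6 litters, 3 of stressed and 3 of control dams. All dams were C57BL/6 mice bought pregnant. The stressed dams were confined to a ventilated tube for 2 h on every day between gestational days 7 and 19, and the control dams stayed in their home cages without disturbance. Dams and litters of both groups then lived apart from each other on a standard diet until the pups were taken. No pup was itself treated, so that the word stressed refers to the dam throughout. Each litter is known here through 1 male and 1 female pup only, and sex is balanced between the groups by the sum.

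Restraint in pregnancy raises glucocorticoids, the steroid hormones of the stress axis, in the dam, and part of this hormone can cross the placenta. In the offspring it is studied for lasting effects on brain, immunity and metabolism, and the gut is of interest because its lining matures late in the mouse. Before weaning the ileal epithelium takes up milk proteins by endocytosis and digests them in lysosomes, Paneth cells and goblet cells are still increasing, and maternal antibodies are absorbed. Glucocorticoids are known to hasten the change from the suckling to the adult epithelium. Lists of genes for these functions, for stress hormones, for immune defence, for mitochondria and for the cell types of the gut wall were therefore followed litter by litter.

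The 6 litters held between 37556805 and 41933336 counted reads, and the male pup gave 43.7% to 48.9% of the reads of its litter. No litter repeated another: a chi-square of counts per degree of freedom between litters of 1 group ran from 34.1 to 161. Control litter 3 stood apart. On the first principal component, which held 66.2% of the variance over 14519 genes, it lay at 53.96 and the other 5 litters between -21.07 and 2.115. Litter sums of Fabp1, a fatty acid carrier of the upper small intestine, reached 684.7 CPM (counts scaled to library size) in control litter 3 and lay between 0.266 and 0.588 CPM in the others. Of 2 ileal genes, Fabp6, the ileal bile acid binding protein, stood at 35.7 CPM in control litter 3 and between 47.3 and 455 CPM elsewhere, and Slc10a2, the ileal bile acid transporter, at 1.22 against 2.35 to 5.31 CPM. The summed CPM of the suckling ileal endocytosis and lysosome list was highest there, at 20239 CPM against 14786 to 18705 CPM in the others. Its member Fcgrt alone stood at 2926 CPM in this litter and between 582 and 890 CPM elsewhere. By the median deviation of its members the list was not highest there. That was 0.0039 in control litter 3, against 0.09 in stressed litter 2 and 0.03 and 0.08 in control litters 1 and 2. Medians of gene lists that turned sign without this litter are given with and without it.

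Across all genes no difference between the litters of stressed and control dams passed the test. Of the 35275 genes listed, 16749 were counted often enough to be tested, and 0 of them (0%) passed an adjusted p of 0.05 in the quasi-likelihood F test of edgeR, the smallest adjusted p being 0.99988. DESeq2 and limma-voom called 0 genes as well. At an unadjusted p under 0.05 edgeR listed 228 genes (1.36%), 93 of them higher and 135 lower in stressed litters. The lean of this split depended on the fit: DESeq2 listed 59 higher and 170 lower genes of 229, limma-voom as many higher as lower of 202, littermates averaged on the log2 scale 121 and 85, the 12 pups with the dam as a random block 176 and 120, and log2(FPKM + 1) 150 and 61. After scaling, which centres the fold changes near 0, 8600 genes had a positive and 8149 a negative log2 fold change, with a median of 0.0047. In 957 genes (5.71%) the 3 stressed and the 3 control litters did not overlap, 424 of them (2.53%) with the stressed litters on the higher and 533 (3.18%) on the lower side. The p-values rest on the spread between 3 litters a group, and an exact permutation test of a single value over 3 against 3 litters cannot give a p below 0.1. That 0.1 is also the share of genes expected to separate fully, in either direction, if the litters were exchangeable. The 5.71% seen lay below it, and the 1.36% lay below the 0.05 of the unadjusted threshold, so that neither is an excess.

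The size of change that these litters leave possible differed with abundance. For 14519 genes with a mean of at least 1 CPM the median standard error of the log2 fold change was 0.14, larger than the median size of the fold change itself, 0.09. The 95% interval of the fold change lay wholly within a 2-fold change for 13477 of these genes (92.8%) and within a 1.5-fold change for 10331 (71.2%). Among the 10120 genes with a mean of at least 10 CPM the shares were 96.1% and 83.9%. The glucocorticoid receptor gene Nr3c1 was among the narrow ones. It stood at 236, 221 and 278 CPM in stressed litters 1, 2 and 3 and at 215, 231 and 234 CPM in the control litters, with a log2 fold change of 0.11 ± 0.11 (SE) and a 95% interval from -0.15 to 0.37. Its partner Nr3c2, the mineralocorticoid receptor gene, stood between 20.8 and 24.4 CPM in stressed and between 22.7 and 25.2 CPM in control litters, a log2 fold change of -0.09 with an interval from -0.32 to 0.14. Both receptors overlapped between the groups.

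No gene passed the test, so the genes described next are those of smallest unadjusted p with no overlap between the groups, 10 in each direction, and none of them is a call. On the higher side Opn3 (chromosome 1, 175662421 to 175692776, ENSMUSG00000026525), a light-sensing type of receptor also made outside the eye, stood at 2.65, 2.58 and 2.72 CPM in stressed litters 1, 2 and 3 and at 1.67, 1.74 and 1.74 CPM in the control litters. The 3 values of each group were nearly the same, and the log2 fold change was 0.62 ± 0.15 (SE; unadjusted p = 0.0044, adjusted p = 0.9999 by edgeR). Rel (chromosome 11, 23741514 to 23770970), which encodes the NF-kB subunit c-Rel of lymphocytes, stood at 6.05, 5.54 and 6.87 CPM against 4.18, 4.46 and 4.54 CPM, a log2 fold change of 0.49 ± 0.14. Kcnn3, a calcium-activated potassium channel of the PDGFRA-positive cells of gut muscle, was the most abundant of the 10. It stood at 37.6, 34 and 36.4 CPM in stressed and at 32.4, 27.3 and 30.1 CPM in control litters, a log2 fold change of 0.27 ± 0.09 with the lowest stressed litter not far above the highest control litter. The other 7 were Acss3, a mitochondrial acyl-CoA synthetase, Gab3, an adaptor of cytokine receptor signalling, Rbm24, an RNA-binding splicing factor, Cdsn, the corneodesmosin of cell junctions in skin, the zinc finger genes Zfp607 and Zfp783, and Kdm5d, a histone demethylase gene of the Y chromosome. Their log2 fold changes ran from 0.36 for Rbm24 to 0.85 for Gab3. Kdm5d is read from the male pup of each litter alone, so that its litter value also moves with the share of reads from that pup.

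On the lower side 4 of the 10 genes belonged to the mitochondrial genome and are described with it. Serpinb6b (chromosome 13, 32965209 to 32979067, ENSMUSG00000042842), a serine protease inhibitor, stood at 10.2, 8.13 and 9.30 CPM in stressed litters and at 12.1, 13.6 and 13.8 CPM in control litters, a log2 fold change of -0.51 ± 0.13 (SE; unadjusted p = 0.0047, adjusted p = 0.9999 by edgeR). Mctp1 (chromosome 13, 76384535 to 77031810, ENSMUSG00000021596), a calcium-binding membrane protein, stood at 2.78, 2.84 and 3.09 CPM against 4.42, 3.78 and 4.19 CPM, a log2 fold change of -0.51 ± 0.15. The groups of both genes lay well clear of each other. Trac, the constant region of the T cell receptor alpha chain, stood at 0.92, 0.87 and 0.61 CPM against 1.29, 1.47 and 1.90 CPM. For Trac the males of control dams 2 and 3 stood at 1.98 and 3.38 CPM and their sisters at 0.94 and 0.84 CPM. The pups of stressed dams lay between 0.55 and 1.13 CPM for this gene. Il1rl1, the receptor of the alarm cytokine IL-33, stood at 8.14, 7.54 and 7.48 CPM against 10.8, 9.32 and 10.03 CPM. Rab20, a small GTPase of vesicle traffic, stood at 11.02, 12.6 and 10.2 CPM against 14.5, 14.8 and 16.4 CPM. These 3 had log2 fold changes of -0.95, -0.38 and -0.43. Saa3, an acute-phase protein of inflamed tissue, had the largest log2 fold change of the 10, -2.04 ± 0.60, and on that scale the widest spread within a group. It stood at 0.87, 0.66 and 0.16 CPM in stressed and at 1.08, 3.33 and 2.69 CPM in control litters. Single pups carried control litters 2 and 3. The male of dam 2 stood at 6.43 CPM and the female of dam 3 at 4.50 CPM, but their littermates at 0.28 and 0.20 CPM. The pups of stressed dams lay between 0.05 and 1.61 CPM. In whole tissue a lower level of a cell's marker cannot be assigned to fewer such cells or to less RNA in each.

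**Figure D1:**
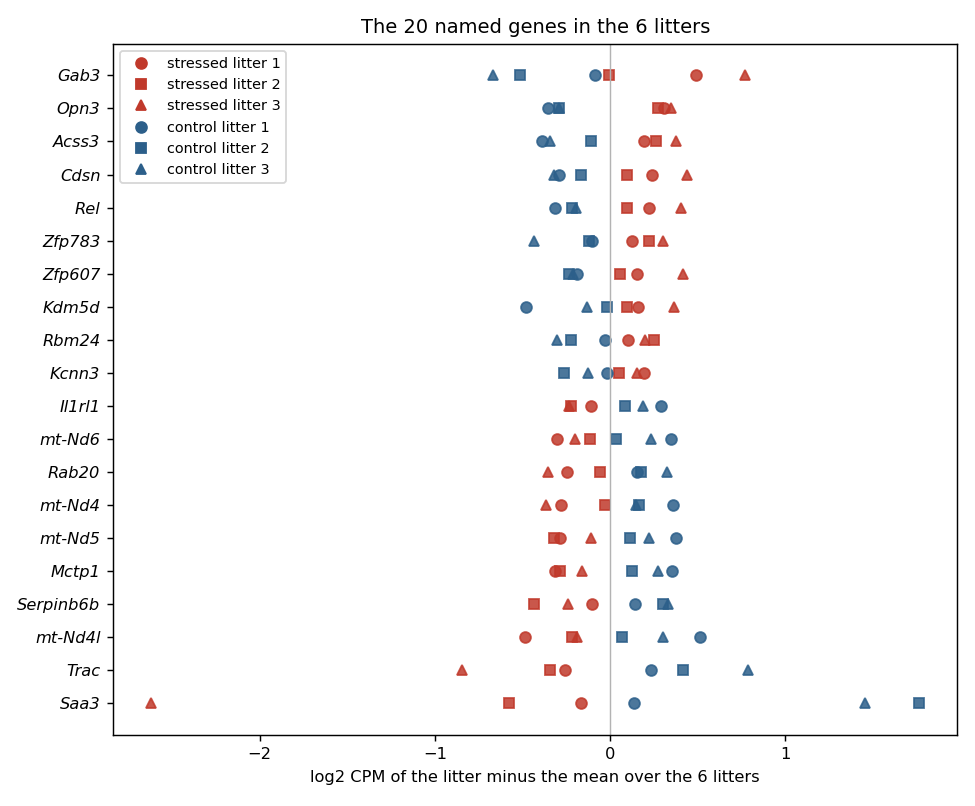
The 20 genes of smallest unadjusted p without overlap between the groups, 10 higher and 10 lower in stressed litters; the horizontal axis is the log2 CPM of a litter minus the mean over the 6 litters, red symbols are stressed and blue symbols control litters, and the symbol shape gives the dam number within its group. For Opn3 the 3 litters of a group almost coincide, whereas the litters of Saa3 spread from 0.16 to 0.87 CPM in the stressed and from 1.08 to 3.33 CPM in the control group; none of the 20 passed the test.

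The protein genes carried by mitochondrial DNA all encode core subunits of respiratory complexes and ATP synthase. Of 13 such genes 12 were tested, and all 12 stood lower in stressed litters, with a median log2 fold change of -0.37 against 0.0047 over all genes. In 8 of the 12 the groups did not overlap, against 3.18% of all genes on that side, and 7 had an unadjusted p under 0.05, but 0 were called. The 12 genes share 1 genome and the same 6 litters, so that they do not count as 12 independent results. mt-Nd5 (chromosome MT, 11742 to 13565, ENSMUSG00000064367), a subunit of complex I, stood at 3334, 3261 and 3766 CPM in stressed and at 5272, 4393 and 4747 CPM in control litters, a mean of 3454 ± 273 against 4804 ± 442 CPM (SD, n = 3 each). On the log2 scale it differed by -0.48 ± 0.14 (SE). mt-Nd4l, the smallest complex I subunit, had -0.60 ± 0.16, mt-Nd6 had -0.42 ± 0.13 and mt-Nd4 had -0.45 ± 0.14. mt-Cytb, the subunit of complex III, stood at 3497, 4812 and 3681 CPM against 5038, 5186 and 5743 CPM, with a log2 fold change of -0.41. The subunits of complex IV lay between -0.28 for mt-Co3 and -0.40 for mt-Co1, and mt-Atp6 of ATP synthase at -0.21. Per gene length the members differed widely in counted reads, from 15.2 to 31.4 FPKM over the litters for mt-Nd4l to 6028.5 to 10927 FPKM for mt-Co1. The low members lay side by side, from mt-Co2 to mt-Nd4l (bases 7013 to 10173), with mean levels of 6.2 to 99.7 CPM. The other tested members had means of 1273 to 13465 CPM. Counts in that stretch may not follow the RNA level alone, and the reason was not tested. The 95% interval of each of the 12 genes lay within a 2-fold change.

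Summed over its members, the mitochondrial genome took 2.69%, 3.46% and 2.86% of the reads of stressed litters 1, 2 and 3 and 3.97%, 3.95% and 3.58% of the reads of control litters 1, 2 and 3. The means were 3.01% ± 0.40 and 3.83% ± 0.22 (SD, n = 3 each), and the groups did not overlap (exact permutation test, two-sided p = 0.1, the smallest that 3 against 3 litters allow). The litter sums hid an unequal pair of pups. The male pups of stressed dams 1, 2 and 3 gave 2.18%, 3.47% and 1.16% of their reads, below the 4.59%, 4.21% and 4.32% of the control males, whereas the females of stressed dams gave 3.17%, 3.45% and 4.19%, around the 3.47%, 3.70% and 3.01% of the control females. Taken 1 sex at a time, the median of the list was -0.95 in males and 0.08 in females. The males of stressed dams 1 and 3, which were lowest, and the male of control dam 1 also held the most reads of the noncoding RNA Yam1, with 1.39%, 4.13% and 1.00% against at most 0.50% in the other 9 pups. Without these 3 pups, whose sisters then stood for the litter, the median of the list was -0.04 and 5 of the 12 genes were higher. These 3 pups include the highest of all 12, the male of control dam 1. The male of stressed dam 2, which was kept, also lay below all 3 control males. The part of the 3 pups in the difference between the litters was not tested. Without control litter 3 the median of the list was -0.36.

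**Figure D2:**
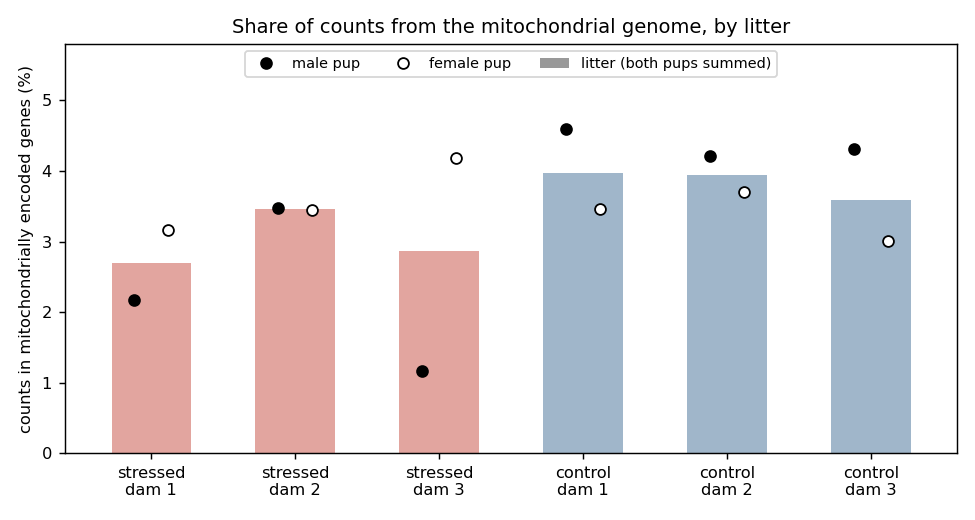
Share of counted reads that fell in mitochondrially encoded genes, in percent, for each litter (bars, red for stressed and blue for control dams) and for its male (filled) and female (open) pup. The stressed litters lie between 2.69% and 3.46% and the control litters between 3.58% and 3.97%, and the lowest pups are the males of stressed dams 3 and 1, at 1.16% and 2.18%.

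The nuclear genes of oxidative phosphorylation, whose proteins join the mitochondrial subunits in the same complexes, showed small differences that turned on control litter 3. All 32 stood lower in stressed litters with a median of -0.12, and without control litter 3 26 of 32 stood higher with a median of 0.04. Cycs, cytochrome c, reached 113.5 CPM in control litter 3 and lay between 53.1 and 74.6 CPM in the other 5 litters. Cytosolic ribosomal protein genes were among the most even of all lists: 24 of 36 were higher, the median was 0.03, and their median deviation by litter stayed between -0.05 and 0.05.

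Genes answering interferon, the antiviral signal, were lower in nearly every member, and this rested on 1 control litter. Of 43 members 42 were lower in stressed litters, with a median log2 fold change of -0.29, 0 called and 2 with an unadjusted p under 0.05. In 4 of the 43 the stressed litters lay wholly below the control litters, against 3.18% of all genes. Irf7, a transcription factor that drives interferon production, was one of them: it stood at 104, 115 and 95.4 CPM in stressed litters and at 132, 117 and 191 CPM in control litters, with control litter 2 only just above the highest stressed litter. Ifi47, an interferon-inducible GTPase, stood at 22.5, 25.1 and 19.5 CPM against 26.2, 26.04 and 36.6 CPM. Ifit3, an antiviral RNA-binding protein, stood at 13.2, 22.9 and 23.9 CPM against 22.6, 20.2 and 80.6 CPM. The median deviation of the list was 0.59 in control litter 3 and between -0.20 and -0.08 in each of the other 5 litters, so that without control litter 3 the median was 0.01 and 22 of the 43 members stood higher.

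The promoters of many such genes carry a recognised element, and 1 promoter that holds it is printed as an example. The 250 bases before the start of transcription were searched on both strands for the interferon-stimulated response element, written GAAANNGAAA or in reverse TTTCNNTTTC. Of the 43 genes 29 had a promoter in the RefSeq table (assembly GRCm38.p6), and in 15 of the 29 the letters were found, against 3.46% of all 27025 genes in that table (2.98% of its 32851 promoters). Isg15, an ubiquitin-like protein that interferon induces, holds 3 overlapping matches (chr4:156200819-156201068, minus strand, capitals mark the matches).
Isg15 promoter: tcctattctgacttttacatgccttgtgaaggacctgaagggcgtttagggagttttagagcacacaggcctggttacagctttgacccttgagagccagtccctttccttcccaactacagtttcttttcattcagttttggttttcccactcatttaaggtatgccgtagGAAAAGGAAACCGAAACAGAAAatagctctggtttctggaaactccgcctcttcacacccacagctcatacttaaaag
Isg15 was chosen for display after its values were seen. It stood at 16.1, 20.8 and 21.3 CPM in stressed litters and at 21.7, 19.1 and 52.0 CPM in control litters, a log2 fold change of -0.67 ± 0.37 (SE). Control litters 1 and 2 lay within or next to the stressed range, and the third control litter lay far above it.

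MHC class I genes, which load and show peptides to T cells, followed the same litter. All 23 were lower with a median of -0.25, and without control litter 3 9 of 23 were higher with a median of -0.03. Tapbp, the tapasin of the peptide-loading complex, was the 1 member of 23 without overlap, against 3.18% of all genes on that side, at 176, 187 and 169 CPM in stressed against 213, 193 and 237 CPM in control litters, a log2 fold change of -0.27 ± 0.10. B2m, the light chain of MHC class I, stood at 539, 647 and 410.5 CPM against 492, 552 and 1220 CPM. H2-Q2, a class I gene with near-identical neighbours whose reads may have been split between them, reached 494.6 CPM in control litter 3 and lay between 76.2 and 132 CPM elsewhere. Other lists of immune defence held no called member either, and their medians also moved with that litter. MHC class II genes had 7 of 11 lower with a median of -0.07, and without control litter 3 9 of 11 higher with 0.10. Toll-like and NOD receptors had 12 of 22 lower with -0.0019, and then 17 of 22 higher with 0.08. Cytokines and chemokines had 20 of 27 lower with -0.17, which became -0.02. Inducible epithelial defence genes had 13 of 19 lower with -0.28, and then 14 of 19 higher with 0.10. Tlr5, the receptor of bacterial flagellin, stood at 17.6, 16.5 and 22.2 CPM in stressed and 14.3, 17.8 and 11.7 CPM in control litters, with the groups overlapping.

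Genes induced by glucocorticoids were mostly lower in stressed litters, again through control litter 3. Of 23 members 19 were lower, the median was -0.30, and 2 had an unadjusted p under 0.05. Both of these lie outside the classical core of the list: Angptl4, an inhibitor of lipoprotein lipase, stood at 6.88, 9.44 and 7.03 CPM in stressed and at 10.9, 9.59 and 18.3 CPM in control litters, and Lcn2, an iron-trapping defence protein, at 0.99, 1.36 and 0.61 CPM against 1.32, 1.496 and 3.18 CPM. Angptl4 was the only member of the 23 without overlap, against 3.18% of all genes on that side. Genes used widely as readouts of the receptor, Fkbp5, Tsc22d3 and Per1, showed the pattern of the list. Fkbp5, a chaperone that dampens the receptor, stood at 11.4, 10.6 and 12.5 CPM against 12.1, 10.9 and 20.45 CPM. Tsc22d3, the mediator known as GILZ, stood at 38.8, 58.3 and 39.2 CPM against 41.4, 51.7 and 125 CPM. Per1, a clock gene with a glucocorticoid-driven promoter, stood at 27.1, 34.5 and 29.1 CPM against 32.9, 34.7 and 71.7 CPM. In each the third control litter was the highest and control litters 1 and 2 lay in or near the stressed range. Without control litter 3 the median of the list was -0.03 and 9 of the 23 members stood higher.

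The glucocorticoid response element was searched in the same promoters as the palindromic letters GNACANNNTGTNC. It was found in 2 of the 20 members with a promoter in the RefSeq table, Sgk1 and Mt1, against 0.440% of all genes and 0.387% of all promoters. These promoters are shown because the 2 genes that hold the letters stood on opposite sides (GRCm38.p6, both plus strand, Sgk1 at chr10:21993640-21993889 for 1 of its 6 listed starts and Mt1 at chr8:94178839-94179088, capitals mark the match).
Sgk1 promoter: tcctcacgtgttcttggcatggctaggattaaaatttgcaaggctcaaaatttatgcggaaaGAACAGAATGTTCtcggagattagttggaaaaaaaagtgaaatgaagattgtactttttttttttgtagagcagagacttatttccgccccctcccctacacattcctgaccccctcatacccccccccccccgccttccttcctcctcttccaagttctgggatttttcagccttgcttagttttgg
Mt1 promoter: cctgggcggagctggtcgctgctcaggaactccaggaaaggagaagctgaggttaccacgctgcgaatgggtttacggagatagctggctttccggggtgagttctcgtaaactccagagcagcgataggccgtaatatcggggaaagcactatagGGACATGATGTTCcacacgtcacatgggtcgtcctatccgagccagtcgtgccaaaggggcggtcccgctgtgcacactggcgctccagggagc
Sgk1, a kinase that raises sodium uptake, stood at 89.8, 104 and 93.6 CPM in stressed and at 93.5, 103 and 223 CPM in control litters, a log2 fold change of -0.55 ± 0.32. Mt1, the metal-binding metallothionein 1, stood at 374, 188 and 294 CPM in stressed and at 345, 109 and 82.7 CPM in control litters, a log2 fold change of 0.68 ± 0.53. Mt2, its neighbour in function, stood at 122, 66.7 and 97.9 CPM against 104, 19.6 and 32.4 CPM. For the metallothioneins control litter 1 lay among the stressed litters and control litters 2 and 3 lay low, and all 3 genes overlapped between the groups.

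Other lists of the stress response had medians nearer to 0. Corticosteroid receptors and local steroid enzymes had 8 of 13 members lower and a median of -0.09, which was -0.0015 without control litter 3, and Hsd11b1, the enzyme that regenerates active glucocorticoid, stood at 0.78, 1.27 and 0.85 CPM in stressed against 1.34, 1.05 and 1.77 CPM in control litters. Immediate early genes, which respond to stimulation and to handling of tissue, had 17 of 22 lower and a median of -0.10, or -0.06 without that litter. Fos among them reached 38.01 CPM in control litter 3 and lay between 5.04 and 11.01 CPM elsewhere. Heat shock and unfolded protein response genes had 17 of 25 lower and a median of -0.07, or -0.01 without it. Clock genes had 9 of 16 higher, a median of 0.03 and intervals within a 2-fold change for 16 of 16. Of the 16, 3 stood lower and 1 higher without overlap, against 3.18% and 2.53% of all genes, and 0 were called. Npas2, a partner of BMAL1 in the clock, was the 1 member with an unadjusted p under 0.05, at 37.6, 38.1 and 41.0 CPM against 45.2, 42.8 and 51.9 CPM, a log2 fold change of -0.26 ± 0.10. DNA and histone methylation enzymes, often studied in prenatal stress, had 16 of 26 higher and a median of 0.02, with intervals within a 2-fold change for 25 of 26. Dnmt3a, a de novo DNA methyltransferase, stood at 180, 154 and 222 CPM against 163, 164 and 143 CPM, and Dnmt1, the maintenance enzyme, between 72.7 and 77.3 CPM in stressed against 61.8 to 78.8 CPM in control litters. Imprinted growth genes had 19 of 22 higher and a median of 0.14, or 0.07 without control litter 3, with H19, an imprinted noncoding RNA, at 67.0 CPM in control litter 3 and 224.7 CPM or more in the other litters.

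Of all lists the proximal small intestine and the enterocyte after weaning had the medians farthest from 0, and both rested on control litter 3. Markers of the proximal small intestine had 13 of 13 members lower in stressed litters and a median of -0.84, which was -0.01 without control litter 3. Gata4, a transcription factor of duodenum and jejunum, stood at 1.47, 1.67 and 0.59 CPM in stressed litters, at 0.38 and 2.501 CPM in control litters 1 and 2 and at 85.9 CPM in control litter 3. Sis, the sucrase-isomaltase that appears at weaning, stood at 8.49, 16.02 and 9.54 CPM against 8.25, 12.9 and 461.9 CPM. Enterocyte genes after weaning (14 of 16 lower) moved from -0.48 to 0.08 on leaving out that litter, and lipid absorption (26 of 28 lower) from -0.37 to 0.01. Cholesterol synthesis ran the other way, with 24 of 26 members higher and a median of 0.22 that became -0.01. Lss, the lanosterol synthase of that pathway, stood at 38.02, 35.01 and 39.05 CPM against 28, 37.4 and 19.03 CPM, so that control litter 2 lay within the stressed range and control litter 3 was the lowest.

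Lists of the suckling ileum moved in unlike ways with the same litter. Suckling ileal endocytosis and lysosome genes had 19 of 30 lower and a median of -0.08, which was -0.11 without control litter 3 with 6 of 30 higher, and intervals within a 2-fold change for 27 of 30. Suckling enterocyte markers had 12 of 15 lower and a median of -0.23, which was -0.06 without control litter 3. Lct, lactase, stood at 253, 440.4 and 200.5 CPM in stressed litters against 204, 398 and 3536 CPM, and Fcgrt, the receptor that carries maternal antibody across the epithelium, at 651, 889.6 and 582 CPM against 835, 862 and 2926 CPM. Fatty acid oxidation and ketogenesis had 22 of 25 lower and a median of -0.11, and without control litter 3 14 of 25 higher and 0.01. Bile acid uptake and the FXR axis had 12 of 18 lower and a median of -0.14, and then 10 of 18 higher and 0.03. Amino acid and peptide transport had 10 of 17 lower and a median of -0.11, and then 12 of 17 higher and 0.03. In that list 3 members stood higher without overlap, against 2.53% of all genes on that side, among them Slc43a1, a carrier of large neutral amino acids, at 4.85, 5.45 and 5.27 CPM against 4.11, 4.46 and 4.43 CPM. Epithelial junction genes had 16 of 24 lower and a median of -0.04, and without control litter 3 12 of 24 higher and 0.0015.

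**Figure D3:**
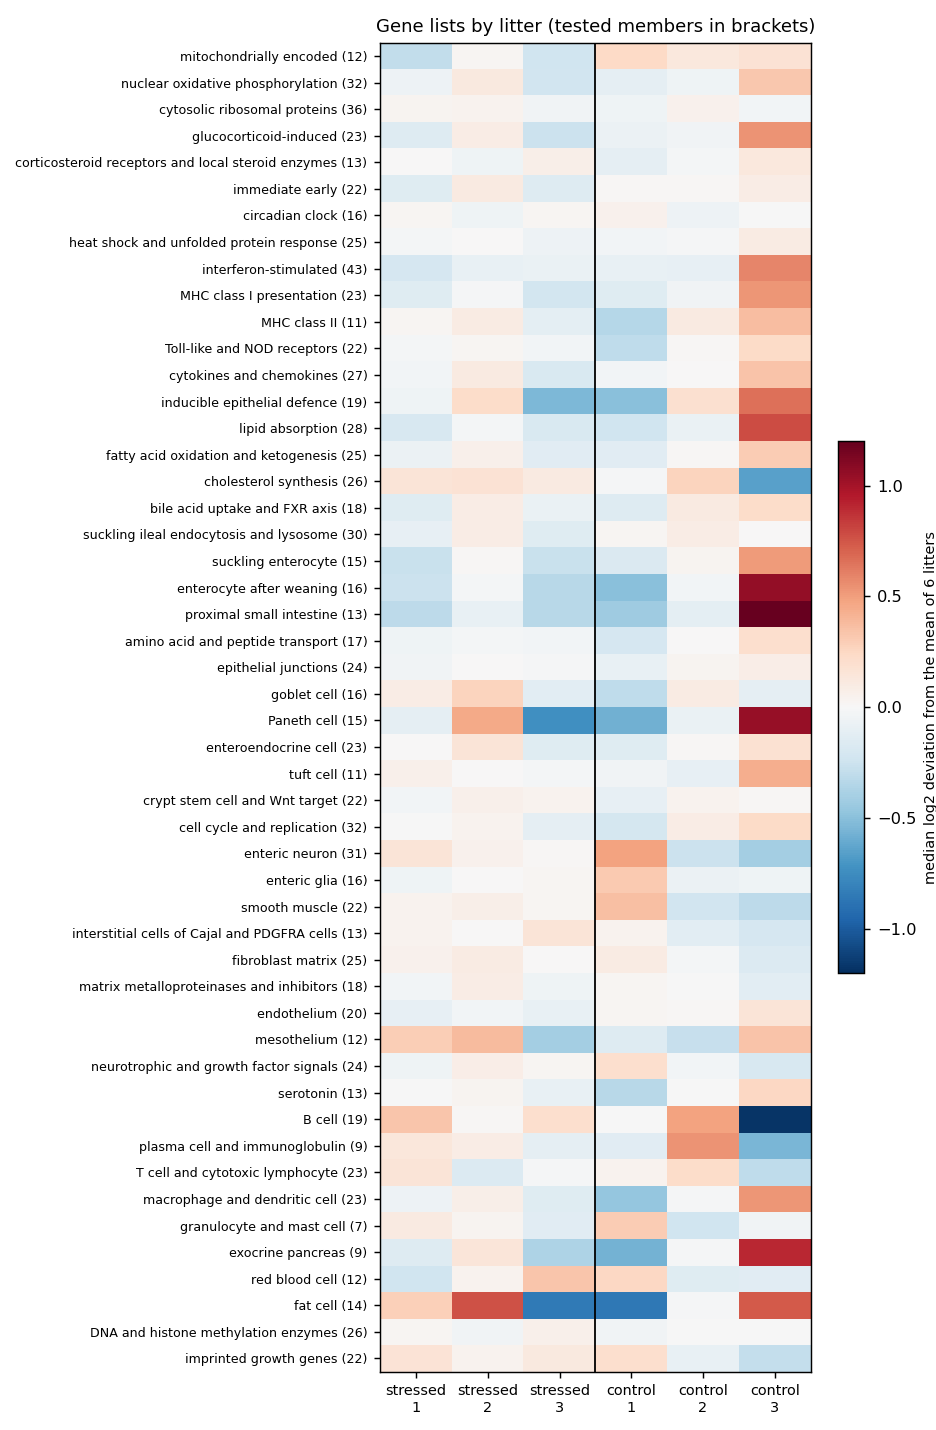
Median log2 deviation of each of 50 gene lists in each litter from its mean over the 6 litters (red higher, blue lower; the number of tested members in brackets; the vertical line parts stressed from control litters). Control litter 3 is the column of strongest colours, with 1.5 for the proximal small intestine and -1.17 for B cells, and the mitochondrially encoded genes lie at -0.29, 0.02 and -0.24 in stressed and at 0.24, 0.12 and 0.17 in control litters.

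Genes of secretory and dividing epithelial cells held no called member. Goblet cell genes had 14 of 16 members higher in stressed litters and a median of 0.19, also without control litter 3. Their median deviations were 0.09, 0.27 and -0.12 in stressed and -0.30, 0.10 and -0.11 in control litters. By pup, the male of control dam 1 lay at -1.62, its sister at 0.32 and the other pups between -0.31 and 0.41. Taken 1 sex at a time, the median of the goblet list was 0.41 in males and 0.06 in females. Muc2, the main mucin of the gut, stood at 376, 359 and 456 CPM in stressed against 239, 367 and 304 CPM in control litters, a log2 fold change of 0.39 ± 0.17. Zg16, a lectin of goblet cell granules, was 1 of the 2 lower members, with 358.8 CPM in control litter 3 and 0.72 to 6.08 CPM elsewhere. Paneth cell genes had 14 of 15 lower and a median of -0.30, and without control litter 3 15 of 15 higher with a median of 0.29. By pup, the Paneth list lay at -2.17 in the male of control dam 1 and at 0.25 in its sister. The males of stressed dams 1 and 3 lay at -0.97 and -1.52. Enteroendocrine genes had 12 of 23 higher and a median of 0.02. Of these 23 Pcsk1, a convertase that cuts prohormones, was the 1 without overlap, at 11.48, 11.37 and 12.39 CPM against 9.04, 11.3 and 10.85 CPM, beside 2.53% of all genes on that side. Crypt stem cell and Wnt target genes had 14 of 22 higher and a median of 0.04, or 0.06 without control litter 3. Tuft cell genes went from 7 of 11 lower and -0.05 to 6 of 11 higher and 0.10 without that litter, serotonin genes from 9 of 13 lower and -0.08 to 9 of 13 higher and 0.09, and cell cycle genes from 23 of 32 lower and -0.06 to 21 of 32 higher and 0.05. Lgr5, the marker of crypt stem cells, stood at 37.3, 35.4 and 45.8 CPM in stressed against 32.2, 38.8 and 25.1 CPM in control litters.

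In the gut wall the endothelium was the list whose members most often separated the groups after the mitochondrial genome. Of 20 genes of blood and lymph vessels 16 were lower in stressed litters with a median of -0.17, and in 7 of the 20 the stressed litters lay wholly below the control litters, against 3.18% of all genes. Cldn5, the tight junction claudin of vessels, stood at 13.1, 14.2 and 13.4 CPM in stressed and at 17.8, 14.9 and 16.8 CPM in control litters, a log2 fold change of -0.28 ± 0.11. Flt1, the receptor VEGFR1, stood at 30.5, 30.9 and 37.8 CPM against 38.2, 38.4 and 49.6 CPM, a log2 fold change of -0.35 ± 0.14. The other 5 without overlap were Cdh5, Tek, Tie1, Eng and Flt4, which are junction and growth factor receptor genes of vessels. Pecam1, a general marker of endothelium, overlapped: 82.5, 91.0 and 84.7 CPM against 88.2, 96.6 and 111 CPM. Of the 20 genes 3 had an unadjusted p under 0.05 and 0 were called, and each 95% interval lay within a 2-fold change. The list median was -0.10 without control litter 3, -0.30 in the male and -0.01 in the female pups, and -0.03 without the 3 male pups rich in Yam1 reads.

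Muscle, nerve and connective tissue of the wall gave smaller medians. Smooth muscle genes had 16 of 22 higher with a median of 0.06, and without control litter 3 5 of 22 higher with -0.07. Enteric neuron genes had 24 of 31 higher with 0.12, and then 7 of 31 higher with -0.04. Enteric glia genes had 12 of 16 lower with -0.05, which became -0.12. For neurons control litter 1 deviated by 0.48 and control litters 2 and 3 by -0.25 and -0.41, with the stressed litters between at 0.15, 0.05 and 0.02. Pacemaker cells of Cajal and PDGFRA cells had 10 of 13 members higher and a median of 0.11, or 0.02 without control litter 3, and 3 of the 13 stood higher without overlap, against 2.53% of all genes. Kit, the receptor that marks cells of Cajal, was one of them, at 40.1, 40.0 and 42.8 CPM against 37.9, 36.8 and 28.2 CPM, beside Kcnn3 described above. Fibroblast matrix genes had 21 of 25 higher and a median of 0.11, or 0.05 without that litter, with Col14a1, a fibril-associated collagen, at 111, 91.6 and 100.5 CPM against 82.1, 85.5 and 91.2 CPM. Matrix metalloproteinases and inhibitors had 10 of 18 lower and a median of -0.05, and without it 12 of 18 higher and 0.06. Neurotrophic and growth factor signals had 13 of 24 higher and a median of 0.05, and then 9 of 24 higher and -0.08. Hgf, a growth factor that fibroblasts send to epithelium, stood at 6.07, 6.03 and 6.15 CPM against 4.98, 5.35 and 3.67 CPM, the 1 member of 24 without overlap beside 2.53% of all genes.

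Immune cells and tissues that can adhere to a piece of ileum were followed in the same way. B cell genes had 17 of 19 higher with a median of 0.26, and without control litter 3, where their deviation was -1.17, 6 of 19 higher with -0.04. T cell and cytotoxic lymphocyte genes had 13 of 23 lower with a median of -0.11, which was -0.10 without control litter 3 and 0.09 without control litter 2. Trac, Il7r and Cd247 stood lower without overlap, 3 of 23 beside 3.18% of all genes, and Nkg7, a granule protein of cytotoxic cells, stood higher without overlap, beside 2.53%. Il7r, the receptor of interleukin 7, stood at 2.81, 3.10 and 3.20 CPM against 4.44, 4.14 and 3.89 CPM. Cd3e, which T cells share, did not go with them, at a log2 fold change of 0.16. Plasma cell genes had 6 of 9 higher with 0.04, and without control litter 3 2 of 9 higher with -0.04. Macrophage and dendritic cell genes had 20 of 23 lower with -0.11, and then 19 of 23 higher with 0.18. Granulocyte and mast cell genes had 4 of 7 higher with 0.14, which was -0.0005 without stressed litter 3. Fat cell genes had 11 of 14 higher with 0.21, which was 0.66 without control litter 3 and -0.07 without stressed litter 2. Mesothelium genes had 10 of 12 higher with 0.13, which was 0.42 and -0.05 on leaving out the same litters. Both lists had summed levels that overlapped between the groups, with fat cell genes at 483 to 876 CPM in stressed and 602 to 1538 CPM in control litters and mesothelium genes at 547 to 713 CPM and 461 to 843 CPM. Exocrine pancreas genes had 7 of 9 lower with -0.28, and without control litter 3 6 of 9 higher with 0.16. Red blood cell genes had 7 of 12 higher with 0.07, which was -0.12 without stressed litter 3. The 9 tested of 21 pancreas genes summed to 54.7 to 75.5 CPM in stressed litters, to 44.1 and 69.9 CPM in control litters 1 and 2 and to 147 CPM in control litter 3, and their part in the results that rest on that litter was not tested. Ctrb1, a chymotrypsinogen among them, stood at 14.4 CPM in control litter 3 and at 0.46 CPM or below in the other 5 litters.

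Leaving out control litter 3 gave the medians of 24 of the 50 lists the opposite sign, among them interferon-stimulated, lipid absorption, cholesterol synthesis, Paneth cell and B cell genes. Leaving out any other single litter did so for 3 to 7 lists, and log2(FPKM + 1) for 7, whose medians then lay between 0.0053 and 0.05. In some lists that turned without control litter 3, the male of control dam 1 lay low and its sister did not. The male deviated by -1.30 for macrophage and dendritic cell, -1.29 for inducible epithelial defence and -0.72 for cell cycle genes. Its sister deviated by 0.04, 0.06 and 0.13. For smooth muscle genes, which also turned, this male lay high at 0.72 and its sister at 0.18. The weight of this pup in those medians was not tested. The mitochondrial genome kept its sign in each of the 6 fits without a litter, between -0.45 and -0.31, and so did the endothelium, between -0.19 and -0.10.

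**Figure D4:**
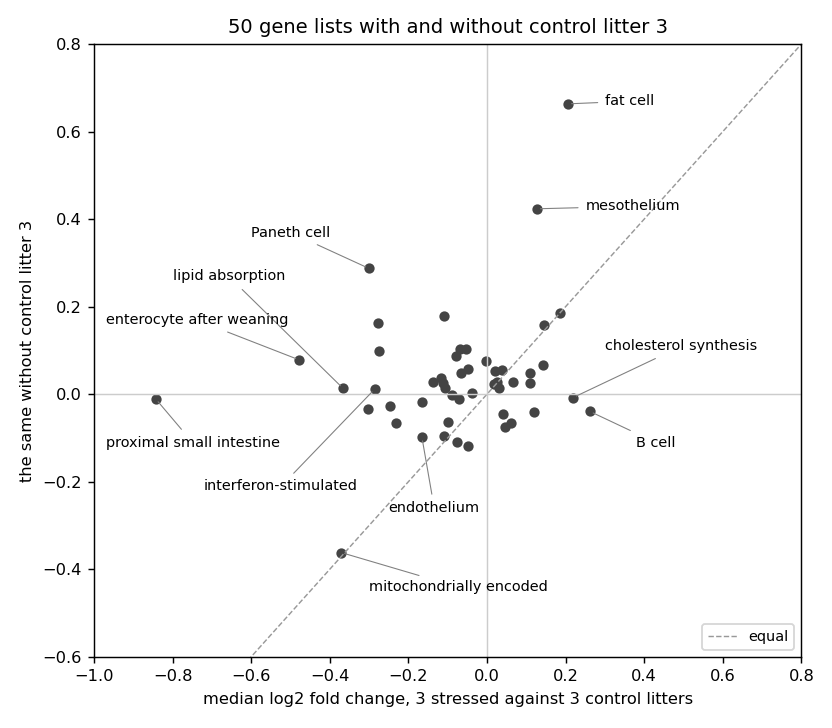
Median log2 fold change of each of the 50 gene lists over all 6 litters (horizontal axis) and without control litter 3 (vertical axis); each point is a list and the dashed line marks equal values. The mitochondrially encoded list stays on the line at -0.37 and -0.36, the proximal small intestine shifts from -0.84 to -0.01 and the fat cell list from 0.21 to 0.66.

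On average over genes littermates were hardly more alike than other pups of their group: the consensus correlation between the 2 pups of a dam, with group and sex taken into account, was 0.0179. This average does not show genes that both pups of control dam 3 shared. Fabp1 stood at 1404 CPM in its male and 169 CPM in its female, and at most 0.64 CPM in any other pup. Gata4 stood at 135 and 51.0 CPM, and at most 4.06 CPM in any other pup. Of the 20 genes without overlap between litters named above, 11 also had no overlap among the 6 male pups, 5 among the 6 female pups and 2, Opn3 and Mctp1, among all 12 pups, beside 5.76%, 5.81% and 0.0537% of all genes. The 20 were chosen on sums of these same pups, so that part of this separation is fixed by the choice. Rel shows how a litter value can come from 1 pup: the males of stressed dams 1 and 3 stood at 8.16 and 10.8 CPM and their sisters at 4.38 and 4.01 CPM, a level found in control females too (3.73 to 4.44 CPM).

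Over all 16749 genes, 9 (0.0537%) separated the 6 pups of stressed dams from the 6 pups of control dams with no overlap, 2 higher and 7 lower. They were picked after their values were seen and none passed the test over litters. Opn3 lay between 2.21 and 3.30 CPM in the pups of stressed dams and between 1.08 and 2.10 CPM in the pups of control dams. It was higher in each of the 6 pups of stressed dams, by a margin smaller than the spread within either group. On the lower side Mctp1 lay between 2.39 and 3.32 CPM against 3.56 and 5.07 CPM. Ripply3 (chromosome 16, 94328420 to 94336935), a transcriptional repressor of early development, lay between 1.46 and 2.22 CPM against 2.57 and 3.29 CPM. Osmr (chromosome 15, 6813577 to 6874969), the receptor subunit of oncostatin M, lay between 8.75 and 10.02 CPM against 10.2 and 13.3 CPM, the 2 groups all but touching. Fastkd5, a mitochondrial RNA-processing protein, stood at 3.55 CPM in its highest stressed and 3.58 CPM in its lowest control pup. BC017643 and the pseudogene-type models Gm7336 and Gm4613 were also on the lower side, the last 2 at under 1 CPM in every pup.

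**Figure D5:**
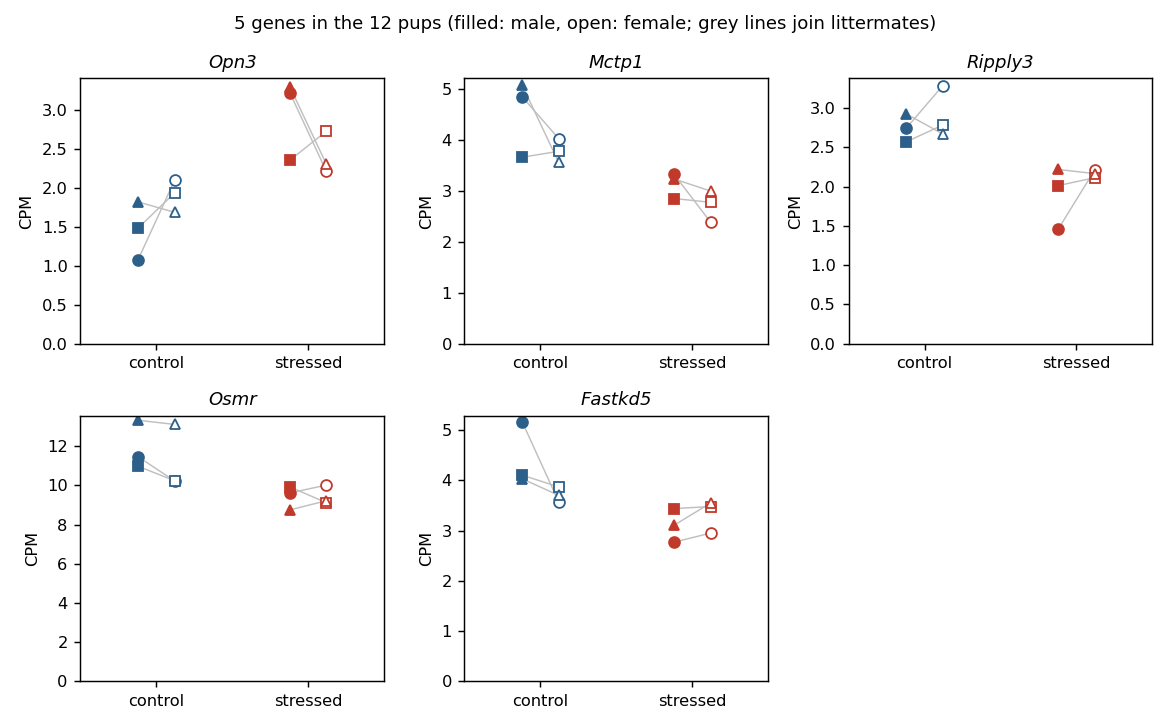
CPM of 5 genes in the 12 pups, chosen because the 6 pups of stressed dams (red) and the 6 pups of control dams (blue) do not overlap; filled symbols are males, open symbols females, the symbol shape gives the dam number within its group and grey lines join littermates. In CPM the gap is widest for Ripply3, from 2.22 to 2.57 CPM, and narrowest for Fastkd5, from 3.55 to 3.58 CPM. For Opn3 the highest control pup lies at 2.10 CPM and the lowest stressed pup at 2.21 CPM. For Osmr a stressed pup at 10.02 CPM lies next to a control pup at 10.2 CPM.

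Whether the 2 sexes answered differently was tested within litters, on the difference of log2 CPM between the male and the female pup of a dam. Of 16749 genes 0 (0%) differed in this measure between stressed and control litters in limma, with 399 at an unadjusted p under 0.05. edgeR on the 12 pups with the dam as a block also gave 0, with 280 at an unadjusted p under 0.05. This test was chosen after the data were seen, and the difference of the mitochondrial genes between the sexes did not pass it.

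The authors' deposited table compares the 12 pups of stressed and control dams without summing littermates. In the authors' deposited table no adjusted p passed: of 24145 genes with a p-value, 0 reached 0.05, the smallest being 0.9996, and 553 had an unadjusted p under 0.05. The authors' deposited table gives log2 fold changes between -0.50 and 0.52. For Opn3 the authors' deposited table gives 0.47 and for Mctp1 -0.41, on the side that the litters show. Kdm5d is near 0 there, at 0.0089 in the authors' deposited table, where the litter sums gave 0.41. The 2 sources are not on 1 scale: Saa3 is -0.17 in the authors' deposited table and -2.04 over litters. The 12 pups also include females, which held at most 0.09 CPM of Kdm5d. Among males it stood at 41.7, 38.3 and 52.4 CPM with stressed dams and at 28.1, 34.1 and 37.2 CPM with control dams. The reason for the unlike values was not tested.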

How the data were processed

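The deposited table of counts holds, per the file headers, whole-number read counts of 35275 genes in 12 libraries, and the deposited FPKM table the same genes and libraries. Every FPKM above 0, 240813 in all, could be rebuilt from its count, the length of the gene and the library total to a relative 1e-06. The authors' table of comparisons gives the log2 fold change of every gene with its p-value, raw and adjusted. Builds GRCm38 and mm10 and the tools STAR 2.5, HTSeq 0.6.1, edgeR 3.16.5, DESeq2 and TopHat appear in the submitters' processing notes, without their roles. Annotation release, strandedness and the removal of ribosomal RNA are not given in the sources used here, so reads of overlapping genes on opposite strands may not have been told apart.

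Counts of the male and the female pup of a dam were summed, and 3 stressed litters were tested against 3 control litters in R 4.3.3 with edgeR 4.0.16 (filterByExpr, TMM, quasi-likelihood F test, 16749 genes, Benjamini-Hochberg over all of them, threshold 0.05). Positive log2 fold changes are higher in stressed litters, and intervals are 95% intervals from the standard error and the moderated degrees of freedom. CPM values are scaled by TMM. A litter's FPKM is the mean of its pups. Alternatives were DESeq2 1.42.0, limma 3.58.1 (voom, log2 CPM of littermates averaged, log2(FPKM + 1), 12 pups with the dam as a random block), other scalings and filters, the dam number as a block, 1 sex alone, each litter left out, a length correction and the litters without 3 male pups. The tests were tested on simulated data. The comparison, the 50 gene lists and most alternatives were chosen with earlier results of these data known.

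With no gene past the threshold, the text names the 10 higher and 10 lower genes of smallest unadjusted p among those with a mean of at least 1 CPM, groups that do not overlap and a symbol that is no clone name. From a list, the 2 members with the smallest unadjusted p may be named. Other members are named for their role. Genes that separate the 12 pups, the genes whose promoters are printed and the test within litters were chosen after the data were seen. Of symbols shared by several identifiers, 52 in all, lists use the identifier with the highest mean. Some genes are not reported here.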

Additional observations from a re-analysis of the deposited data

How the results depend on the processing

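No setting called a gene in the comparison of litters. The 228 genes at an unadjusted p under 0.05 became 425 of 24252 with no filter on low counts and 148 of 14524 with a mean of at least 1 CPM, and between 74 and 1230 with 1 litter left out, the ends being without stressed litter 1 and without control litter 1. The count was 631 without stressed litter 2, 478 without control litter 2, 153 without stressed litter 3 and 181 without control litter 3, with 0 called throughout. With the dam number as a replicate block it was 118. Deviations of the stressed and the control litter of the same number correlated at 0.20, -0.10 and -0.31. They were taken from the mean of each group of 3 litters, so that the correlations depend on each other. They cannot decide whether litters of the same number belong together. Within litters, the difference between the sexes gave 399 genes at an unadjusted p under 0.05, 280 with edgeR and between 203 and 1564 with 1 litter left out, with 0 called.

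Several log2 fold changes took the opposite sign with other pups, and the cause was not tested. In the female pups alone they were -0.029 for Acss3, -0.082 for Kcnn3, -0.045 for Znrf3, -0.16 for Col14a1, -0.16 for Mmp16 and -0.053 for Dnmt3a. Among mitochondrial genes the females gave 0.060 for mt-Nd4, 0.16 for mt-Co3, 0.073 for mt-Cytb, 0.10 for mt-Nd2, 0.14 for mt-Nd1, 0.058 for mt-Co1, 0.21 for mt-Co2, 0.25 for mt-Atp6 and 0.34 for mt-Nd3. In the male pups alone Star, a cholesterol carrier of steroid synthesis, stood at 0.066. Without the 3 male pups rich in Yam1 reads the values were -0.77 for Kdm5d, whose litters then lacked a male, -0.058 for Znrf3, -0.046 for Dnmt3a, 0.11 for mt-Co3, 0.020 for mt-Nd1, 0.13 for mt-Co2, 0.15 for mt-Atp6 and 0.14 for mt-Nd3.

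With 1 litter left out the range was -6.95 to 0.32 for Zg16, -2.79 to 0.16 for Apoc2, -4.39 to 0.10 for Sis, -3.28 to 0.012 for Treh, -1.23 to 0.15 for Ang4, -3.36 to 0.34 for Gip and -4.51 to 0.41 for Ctrb1, the positive end being without control litter 3 for each. List medians took the opposite sign in 13 of 50 lists in the female pups, in 6 in the males and in 5 without the 3 male pups. They did so in 1 list each with the length correction and with the dam number as a block. With log2(FPKM + 1) it was 7 lists, with the 12 pups and the dam as a random block 5. Littermates averaged on the log2 scale gave 3 such lists and limma-voom 2. Median-ratio size factors and DESeq2 turned the sign of 0 lists. Abundance limited what could be seen: the 95% interval lay within a 2-fold change for 85.4% of all genes tested and for 96.1% of those with a mean of at least 10 CPM.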
